A study of Mus musculus with 24 samples.

Results

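Marker genes of macrophages, monocytes, antigen-presenting cells and neutrophils were followed in whole-kidney RNA of male Crl:CD1(ICR) mice, an outbred stock. The list holds 35 genes out of 22911 gene symbols on the array, and 34 of the 35 had a probe with a gene name. They were sorted by textbook role into 13 resident macrophage genes, 7 monocyte genes, 6 antigen presentation genes, 5 genes shared by most myeloid cells and 4 neutrophil genes. The DKD+enarodustat group (n = 9) received 90 mg/kg of alloxan intravenously and then feed containing 0.01% (w/w) enarodustat. The DKD group (n = 9) received the same dose of alloxan and normal feed, and the Sham group (n = 6) received vehicle and normal feed. Injections preceded grouping by 3 days, the alloxan-treated groups were matched on blood glucose and body weight, and kidneys were taken 16 days after grouping. Ages are not given in the sources used here. Alloxan is toxic to the insulin-producing beta cells of the pancreas, and enarodustat blocks prolyl hydroxylases, the enzymes that target hypoxia-inducible factor for breakdown. DKD, short for diabetic kidney disease, is the submitters' name for the group. Each mouse had 1 single-colour Agilent array.

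Resident macrophages of the kidney lie between the tubules, clear debris and depend on the receptor Csf1r for their survival. Monocytes arrive from the blood and can turn into macrophages, and dendritic cells and many macrophages present peptides on MHC class II molecules to T cells. Neutrophils are short-lived blood cells packed with antimicrobial proteins such as calprotectin, the dimer of S100a8 and S100a9.

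A level is the log2 processed signal of the gene's brightest probe relative to the 75th percentile on the same array, so levels of different genes cannot be ranked. A difference is between group means of such levels, given with its SE from limma, a linear model fitted across 17736 genes. A gene is said to have risen or fallen where the p from limma, adjusted by Benjamini-Hochberg over all those genes, was under 0.05. Genes whose probe was well above background on fewer than 6 of 24 arrays were not tested. Of the 35 genes, 33 were tested: Clec7a, a fungal receptor, had no named probe, and Msr1, a scavenger receptor, was well above background on 4 arrays. Cd163, the haemoglobin scavenger receptor, was tested with 8 such arrays, Retnlg with 22, and the other tested genes with all 24. Arrays of 1 group correlated at 0.964 to 0.991 across genes, and 37716 to 44732 spots per array were well above background. The 5 proximal tubule and 4 podocyte marker genes listed all passed the filter. Each of 3 slides held arrays of all groups, but position within a slide followed the group: row 2 held all DKD+enarodustat arrays and 3 of the DKD arrays, and row 1 held the other 6 DKD arrays and every Sham array. The array of DKD+enarodustat 3 carried a quality warning from the scanner software and stayed in the fit.

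The 3 comparisons gave few calls among these genes. In DKD against Sham kidneys 0 of 33 genes rose and 3 fell (Csf1r, S100a8 and S100a9), while 5.47% of all genes tested rose and 6.13% fell. At an unadjusted p under 0.05, 1 of the 33 was higher and 5 were lower, beside 12% and 12.8% of all genes. Differences were below 0 for 24 of the 33, against 51.9% of all genes, and their median was −0.18, against −0.01 over all genes. It was −0.093 with normexp, another background correction, on the median signals. Normexp was run with an offset of 50 added to each signal, which by itself shrinks log2 differences of dim probes. How much of any smaller difference with normexp came from the offset was not tested. In DKD+enarodustat against DKD kidneys limma called 0 of 33 genes in either direction, where 0.609% of all genes rose and 0.107% fell. At an unadjusted p under 0.05, 14 of the 33 were higher and 0 lower, beside 6.46% and 4.46% of all genes. The difference was above 0 for 33 of 33 genes, beside 51.1% of all genes, with a median of 0.36 against 0.00 over all genes. With normexp on the median signals that median was 0.18. The count holds for the brightest probes. Of the further probes tested for these genes, only the second Itgam probe lay below 0 there (−0.24 ± 0.29). For Fcgr3 and H2-Eb1 the differences were near 0, at 0.02 ± 0.16 and 0.04 ± 0.87. In DKD+enarodustat against Sham kidneys Lyz2 rose and Csf1r fell, where 8.74% of all genes rose and 6.75% fell. At an unadjusted p under 0.05, 6 of the 33 were higher and 3 lower, beside 2734 and 2526 of all 17736 genes. Differences were above 0 for 24 of 33, beside 47.7% of all genes, with a median of 0.17 against −0.02. The median was 0.077 without DKD+enarodustat 5, 0.093 in the deposited value table and 0.29 with slide row as a term. Each comparison shares arrays with the other ones, so their values are not independent, and neither are genes that vary together from array to array.

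**Figure D1:**
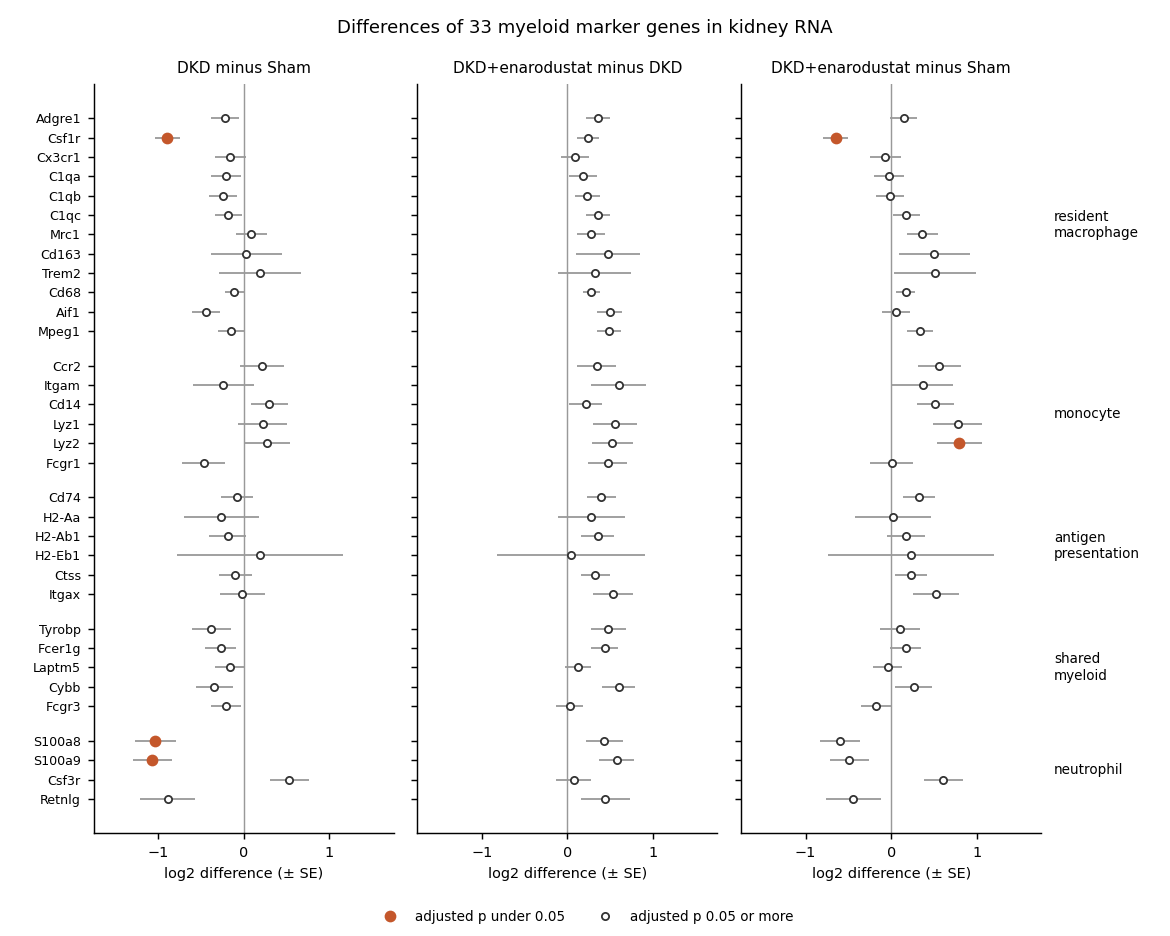
Log2 differences of the 33 tested genes in DKD minus Sham, DKD+enarodustat minus DKD, and DKD+enarodustat minus Sham kidneys, with bars for the SE of limma and filled points for adjusted p under 0.05. All 33 points lie right of 0 in the middle panel, none of them filled, while Csf1r, S100a8 and S100a9 are the filled points of the left panel.

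Taken within slides, the differences of DKD+enarodustat against DKD kidneys were above 0 for 31, 27 and 27 of the 33 genes, with medians of 0.34, 0.41 and 0.29. For 20 genes the difference was above 0 on each of the 3 slides, and for 0 genes it was below 0 on all of them. Shares over all genes were not computed for these counts. Each slide holds part of the same arrays, in the same layout of rows, so the slides are not independent repeats of the comparison. Leaving out any 1 array kept the count between 31 and 33. When the fit included slide row the count was 28 and the median 0.36. In whole tissue, fewer cells of a type and less RNA per cell cannot be told apart. Markers of other cells differed in the same comparison: 2 of 5 endothelial genes rose, Cdh5 by 0.43 ± 0.08 and Emcn by 0.43 ± 0.09 (adjusted p = 0.0103 and 0.0191), and of 5 red cell genes the globin Hbb-bt rose by 1.11 ± 0.26 (adjusted p = 0.0422). With slide row as a term Cdh5 differed by 0.38 and Emcn by 0.29, and neither passed (adjusted p = 0.243 and 0.37). Emcn also failed to pass in a fit of only the 2 groups (adjusted p = 0.0682), and the Hbb-bt call ended without any 1 of 17 arrays, which are Sham 2, 4, 5 and 6, DKD 1, 3, 4 and 6 to 9, and DKD+enarodustat 1, 4, 5, 6, 8 and 9 (adjusted p up to 0.0927), and in 4 of 11 other settings (adjusted p up to 0.116). At an unadjusted p under 0.05 from limma, 4 of the 5 red cell genes were higher in DKD+enarodustat minus DKD, and the median difference of the 5 was 0.98. The globins Hba-a1 and Hba-a2 did not pass in the main fit, and each passed in 5 of 11 other settings. Summed linear levels of the endothelial list were 18.3 to 22.6 (median 20.2) in DKD+enarodustat, 14.1 to 17.1 (median 16.2) in DKD and 15.5 to 18.9 (median 17.1) in Sham kidneys. The part of these cells in the differences of the myeloid genes was not tested.

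Among the resident macrophage genes, Csf1r, the receptor for the growth factors Csf1 and Il34, gave the only call. Its levels had a lowest, median and highest value of 2.88, 3.33 and 3.81 in DKD+enarodustat kidneys and of 2.78, 3.06 and 3.52 in DKD kidneys. In Sham kidneys they were 3.73, 3.97 and 4.42. Every DKD array lay below every Sham array, and 7 of 9 DKD+enarodustat arrays did. Csf1r fell by 0.89 ± 0.14 in DKD against Sham kidneys, a 1.85-fold difference (adjusted p = 0.000264), and the call was kept without any 1 array and in every other setting run. It also fell by 0.65 ± 0.14 in DKD+enarodustat against Sham kidneys (adjusted p = 0.00306), though not with slide row as a term (−0.55, adjusted p = 0.168). Between DKD+enarodustat and DKD kidneys its difference was 0.24 ± 0.13 (adjusted p = 0.528). The 3 slides gave −0.90, −0.63 and −1.13 for DKD minus Sham.

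The call rests on 1 of 2 Csf1r probes. The other probe, for the same transcript accession and well above background on all 24 arrays, differed by −0.12 ± 0.14 in DKD minus Sham (adjusted p over probes = 0.682). Its difference was −0.05 ± 0.14 in DKD+enarodustat minus Sham (adjusted p over probes = 0.876). Deviations of the 2 probes from their group means correlated at −0.09 over 24 arrays. With the mean of both probes the difference of Csf1r was −0.50 in DKD minus Sham (adjusted p = 0.00206) and −0.35 in DKD+enarodustat minus Sham (adjusted p = 0.0216). Deviations of the brighter probe correlated with those of the 32 other tested genes at a median of −0.04, and those of the other probe at −0.09. Which transcripts each probe binds was not tested.

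Il34, a cytokine made by tubule epithelium and neurons that signals through Csf1r, showed the largest difference of the 12 tested ligand genes. It ranged from −0.50 to 2.35 (median 0.51) in DKD+enarodustat kidneys, from −0.91 to 1.12 (median −0.02) in DKD kidneys and from 2.04 to 3.02 (median 2.52) in Sham kidneys. No DKD array reached the Sham range, and the DKD+enarodustat range overlapped both. Il34 fell by 2.43 ± 0.32 in DKD against Sham kidneys, 5.39-fold (adjusted p = 4.69e-05), and by 1.73 ± 0.32 in DKD+enarodustat against Sham kidneys (adjusted p = 0.000751). The difference of DKD+enarodustat against DKD was 0.70 ± 0.28 (adjusted p = 0.337). A second Il34 probe gave −2.34 ± 0.30 for DKD minus Sham, and the deviations of both probes correlated at 0.99 over 24 arrays. Deviations of Il34 and of the brighter Csf1r probe correlated at 0.57, and those of Il34 and the other Csf1r probe at −0.44, over the same 24 arrays. Csf1, the other ligand, had differences of 0.11 in DKD minus Sham, 0.02 in DKD+enarodustat minus DKD and 0.13 in DKD+enarodustat minus Sham, none of which passed.

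**Figure D2:**
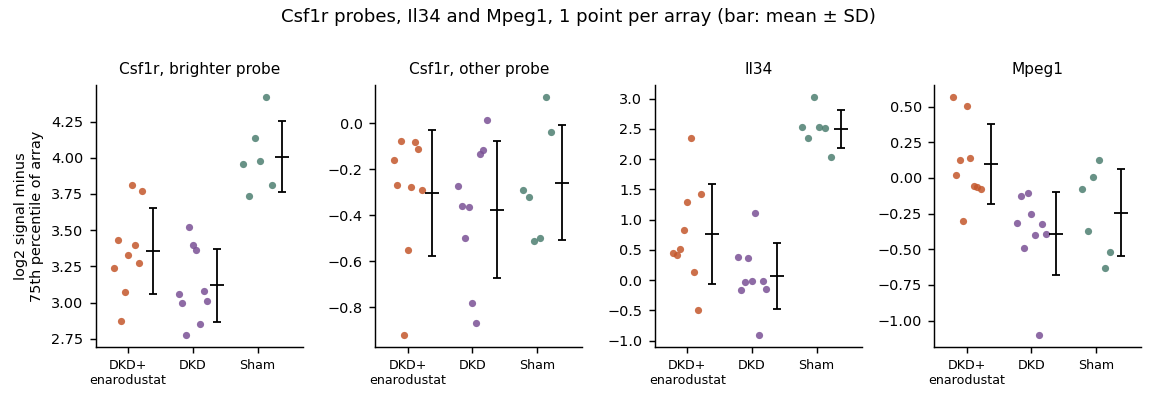
Levels on each array of the brighter Csf1r probe, the other Csf1r probe, Il34 and Mpeg1 in DKD+enarodustat, DKD and Sham kidneys (log2 signal relative to that array's 75th percentile), with bars for mean ± SD. The brighter Csf1r probe and Il34 separate all 9 DKD from all 6 Sham arrays, and the other Csf1r probe does not.

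The other 11 tested resident macrophage genes did not pass in any comparison. Mpeg1, a pore-forming protein of macrophages, had the lowest adjusted p among the 33 genes for DKD+enarodustat against DKD. Its levels had a lowest, median and highest value of −0.30, 0.02 and 0.57 in DKD+enarodustat kidneys, of −1.10, −0.32 and −0.11 in DKD kidneys and of −0.63, −0.22 and 0.12 in Sham kidneys. All but 1 of the DKD+enarodustat arrays lay above every DKD array, and the Sham range spanned much of both. The difference was 0.49 ± 0.14 (adjusted p = 0.115), and the adjusted p was 0.0456 when slide was a block. A second, dimmer Mpeg1 probe, well above background on 22 arrays, gave 0.36 ± 0.17 there (adjusted p over probes = 0.462 from limma). In DKD minus Sham it gave −0.57 ± 0.19 (adjusted p over probes = 0.0613), beside −0.15 ± 0.15 for the brighter probe. In DKD+enarodustat minus Sham the 2 probes disagreed in sign, at −0.21 ± 0.19 and 0.34 ± 0.15. Aif1, the calcium-binding protein also called Iba1, differed by 0.49 ± 0.15 in DKD+enarodustat minus DKD (adjusted p = 0.148) and by −0.44 ± 0.16 in DKD minus Sham (adjusted p = 0.0866). Aif1 passed in DKD minus Sham with slide as a block, without Sham 5 and without DKD+enarodustat 5 (adjusted p = 0.0474, 0.0361 and 0.0352). Adgre1, a surface receptor widely used to mark mouse macrophages, differed by 0.36 ± 0.14 in DKD+enarodustat minus DKD (adjusted p = 0.337) and by −0.21 ± 0.16 in DKD minus Sham (adjusted p = 0.455).

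The complement genes C1qa, C1qb and C1qc, whose products form the C1q molecule that starts the classical pathway, did not pass. In DKD minus Sham they differed by −0.21, −0.24 and −0.18, and in DKD+enarodustat minus DKD by 0.18, 0.23 and 0.36. The lowest adjusted p among those 6 values was 0.317, for C1qc. Cd68, a lysosomal membrane protein, and Cx3cr1, the fractalkine receptor, differed by 0.28 ± 0.10 and 0.09 ± 0.16 in DKD+enarodustat minus DKD (adjusted p = 0.256 and 0.932), where their second probes gave 0.30 and 0.29. For DKD minus Sham their brighter probes gave −0.11 and −0.16. The second probes gave −0.35 ± 0.13 and −0.48 ± 0.24 (adjusted p over probes = 0.102 and 0.22 from limma). Mrc1, the mannose receptor, and Trem2, a lipid receptor, had differences of 0.27 ± 0.16 and 0.32 ± 0.43 in DKD+enarodustat minus DKD, and that of Cd163 was 0.47 ± 0.37. Trem2 and Cd163 varied widely within groups, with SDs of 0.96 and 0.83, beside a median of 0.29 over all genes. Msr1 was above background on 2 of 9 DKD+enarodustat, 2 of 9 DKD and 0 of 6 Sham arrays, so no difference is given for it.

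Of the 6 tested monocyte genes Lyz2 alone passed, in 1 comparison. It encodes the lysozyme of macrophages, monocytes and neutrophils, and Lyz1 is its neighbouring copy, best known from Paneth cells of the intestine. Their promoters are printed because the genes are neighbouring copies whose signals varied together; these bases are not part of the RNA that the probes bind. Both lie on chromosome 10, minus strand, and each stretch below holds the 150 bases just before the transcription start in RefSeq (GRCm38.p6), with capitals where the copies differ.
Lyz1, chr10:117292869-117293018: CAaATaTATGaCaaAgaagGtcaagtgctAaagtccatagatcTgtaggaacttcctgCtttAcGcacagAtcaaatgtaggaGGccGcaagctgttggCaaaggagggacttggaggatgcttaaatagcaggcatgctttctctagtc
Lyz2, chr10:117282273-117282422: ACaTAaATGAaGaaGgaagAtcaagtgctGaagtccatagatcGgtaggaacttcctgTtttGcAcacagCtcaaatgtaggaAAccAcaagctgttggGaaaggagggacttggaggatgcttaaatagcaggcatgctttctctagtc
Without gaps, 129 of the 150 bases (86.0%) were identical, and the 21 differences lay in the part farther from the start site. The deviations of Lyz1 and Lyz2 correlated at 0.94 over 24 arrays, the closest pair in the list. Whether each probe binds RNA of the other copy was not tested, and the values of the pair are uncertain for that reason.

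Lyz2 levels had a lowest, median and highest value of −3.20, −2.53 and −1.22 in DKD+enarodustat kidneys, of −3.55, −3.07 and −1.65 in DKD kidneys and of −3.61, −3.18 and −2.92 in Sham kidneys. Of the 9 DKD+enarodustat arrays, 7 lay above every Sham array, and so did 3 of the 9 DKD arrays. Lyz2 rose by 0.79 ± 0.27 in DKD+enarodustat against Sham kidneys, 1.73-fold (adjusted p = 0.0457). The call ended without any 1 of 14 arrays, which are all 6 Sham arrays, DKD 1 and 6, and DKD+enarodustat 1, 2, 3, 5, 6 and 8 (adjusted p up to 0.106). It also ended in 6 of 11 other settings, with slide row as a term the highest (0.82, adjusted p = 0.276) and the deposited value table the smallest difference (0.29, adjusted p = 0.121). The 3 slides gave 1.08, 0.62 and 0.68. Differences of Lyz2 were 0.52 ± 0.24 in DKD+enarodustat minus DKD (adjusted p = 0.422) and 0.27 ± 0.27 in DKD minus Sham (adjusted p = 0.592).

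Lyz1 had levels of −0.37, 0.46 and 1.28 (lowest, median, highest) in DKD+enarodustat kidneys, of −0.88, −0.36 and 1.62 in DKD kidneys and of −0.71, −0.34 and −0.10 in Sham kidneys. DKD 2 was the highest of all arrays for Lyz1, and 8 of 9 DKD+enarodustat arrays lay above every Sham array. The difference of DKD+enarodustat minus Sham was 0.78 ± 0.29 (adjusted p = 0.0682). Lyz1 passed there with slide as a fixed block (adjusted p = 0.0491), in a fit of only the 2 groups (adjusted p = 0.017), without DKD 2 (adjusted p = 0.0133) and without DKD+enarodustat 4 (adjusted p = 0.0424). Among the other monocyte genes, Ccr2, the receptor for the chemokine Ccl2, differed by 0.56 ± 0.25 there (adjusted p = 0.139), and by 0.79 without Sham 1 (adjusted p = 0.0246). Cd14, the co-receptor for bacterial lipopolysaccharide, differed by 0.52 ± 0.21 in DKD+enarodustat minus Sham (adjusted p = 0.106), and its 2 probes varied together (r = 0.98). Cd14 passed there in a fit of only the 2 groups (adjusted p = 0.0444) and without DKD 2 (adjusted p = 0.0498). Fcgr1, the high-affinity IgG receptor, differed by −0.47 ± 0.25 in DKD minus Sham and by 0.47 ± 0.23 in DKD+enarodustat minus DKD (adjusted p = 0.263 and 0.453). Itgam, the integrin chain CD11b, had a difference of 0.60 ± 0.32 in DKD+enarodustat minus DKD (adjusted p = 0.528), where its second probe gave −0.24 ± 0.29. No direction is given for Itgam, since its probes disagreed in sign.

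Limma called 0 of the 6 antigen presentation genes in any comparison. At an unadjusted p under 0.05, 2 were higher in DKD+enarodustat minus DKD and 0 in either direction in the comparisons with Sham. H2-Ab1, the beta chain of the class II molecule I-A, had levels of 2.84, 3.69 and 4.50 (lowest, median, highest) in DKD+enarodustat kidneys, of 2.77, 3.36 and 4.27 in DKD kidneys and of 3.45, 3.55 and 3.77 in Sham kidneys. The narrow Sham range lay inside the ranges of both other groups. Its difference was 0.36 ± 0.19 in DKD+enarodustat minus DKD (adjusted p = 0.541), and its 4 probes gave 0.31 to 0.37. Cd74, the invariant chain that escorts class II molecules, had levels of 2.46, 3.02 and 3.94 in DKD+enarodustat kidneys, of 2.34, 2.77 and 3.32 in DKD kidneys and of 2.54, 2.83 and 3.11 in Sham kidneys. The ranges of the groups overlapped, with 3 of 9 DKD+enarodustat arrays above every DKD array. The Cd74 difference was 0.39 ± 0.17 in DKD+enarodustat minus DKD (adjusted p = 0.375). Ctss, the protease that trims the invariant chain, and Itgax, the integrin chain CD11c, differed by 0.32 ± 0.17 and 0.53 ± 0.24 there (adjusted p = 0.508 and 0.41).

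H2-Eb1, the beta chain of the class II molecule I-E, split the arrays regardless of group. It lay between −1.65 and −1.02 on 4 arrays (DKD+enarodustat 2 and 6, DKD 8 and Sham 1) and between 2.19 and 4.92 on the other 20. Its SD within groups was 1.94, the largest among the 33 genes. H2-Aa, the alpha chain of I-A, was at 0.35 to 0.96 on those 4 arrays and at −1.85 to 1.45 on the other 20, and deviations of H2-Aa and H2-Eb1 correlated at −0.61. H2-DMb1, a class II peptide loader chosen after its values were seen, lay at −4.14 to −2.36 on 4 other arrays (DKD+enarodustat 3 and 7, DKD 2 and Sham 5) and at −0.42 to 2.53 on the remaining 20. H2-Aa was at −1.85 to −1.15 on those arrays and at −1.25 to 1.45 on the remaining 20, so these ranges overlapped. Class II genes are highly polymorphic and the stock is outbred, and the part of sequence differences under the probes was not tested. Differences between groups of H2-Eb1 were at most 0.23 in size with SEs of 0.87 to 0.97, so changes of that size could not be resolved.

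**Figure D3:**
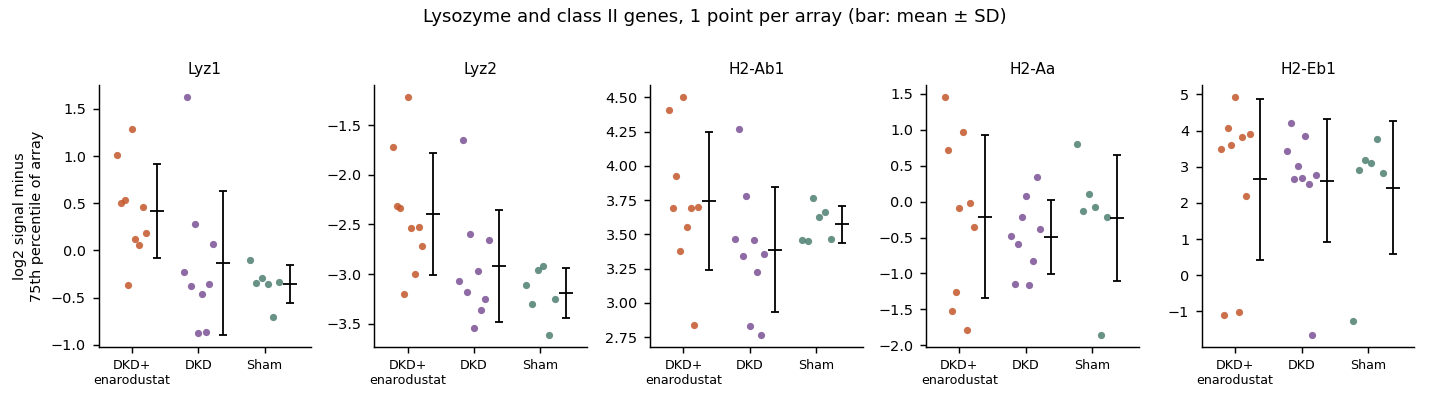
Levels of Lyz1, Lyz2, H2-Ab1, H2-Aa and H2-Eb1 on each array in DKD+enarodustat, DKD and Sham kidneys (log2 signal relative to that array's 75th percentile), with bars for mean ± SD. H2-Eb1 falls into a low set of 4 arrays drawn from all groups and a high set of 20, and DKD 2 stands high for both lysozyme genes.

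The 5 genes shared by most myeloid cells lay below 0 together in DKD minus Sham, with differences of −0.38 to −0.16, and limma called 0 of 5, with 0 at an unadjusted p under 0.05. In DKD+enarodustat minus DKD they lay above 0, from 0.02 to 0.60, with 0 of 5 called and 3 higher at an unadjusted p under 0.05. Fcer1g, the signalling chain of IgE and IgG receptors, had levels of 0.15, 0.49 and 1.43 (lowest, median, highest) in DKD+enarodustat kidneys, of −0.72, 0.06 and 0.62 in DKD kidneys and of 0.19, 0.35 and 0.69 in Sham kidneys. All 9 DKD+enarodustat arrays exceeded the DKD mean, while the ranges overlapped. Its difference was 0.43 ± 0.16 (adjusted p = 0.288). Tyrobp, the adaptor also called DAP12, had levels of −0.52, −0.22 and 1.31 in DKD+enarodustat kidneys, of −1.07, −0.53 and 0.07 in DKD kidneys and of −0.36, −0.28 and 0.49 in Sham kidneys. DKD+enarodustat 5 stood alone at the top, and the difference was 0.48 ± 0.21 (adjusted p = 0.383). Cybb, the catalytic subunit of the phagocyte NADPH oxidase, had 7 of 9 DKD+enarodustat arrays above every DKD array, with a difference of 0.60 ± 0.19 (adjusted p = 0.186). A second Cybb probe, well above background on all 24 arrays, gave 0.34 ± 0.17 (adjusted p over probes = 0.468 from limma). Deviations of the 2 Cybb probes correlated at 0.35. Laptm5, a lysosomal protein of blood cells, and Fcgr3, a low-affinity IgG receptor, differed by 0.12 ± 0.15 and 0.02 ± 0.16.

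Of the 4 neutrophil genes, S100a8 and S100a9 fell in DKD against Sham kidneys and the other pair did not pass. The calprotectin genes lie close together on chromosome 3 in opposite orientation. Their promoters, 150 bases before the transcription start in RefSeq (GRCm38.p6), are shown because the genes were called together and their deviations correlated at 0.92. Capitals mark the TATA box letters TATAAA, searched on both strands.
S100a8, chr3:90668921-90669070, plus strand: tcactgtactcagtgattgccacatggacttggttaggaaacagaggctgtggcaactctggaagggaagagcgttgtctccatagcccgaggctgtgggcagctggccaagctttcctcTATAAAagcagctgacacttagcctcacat
S100a9, chr3:90695722-90695871, minus strand: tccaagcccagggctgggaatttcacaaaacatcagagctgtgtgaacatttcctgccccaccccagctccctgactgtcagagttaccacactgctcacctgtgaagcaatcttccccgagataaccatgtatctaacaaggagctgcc
The S100a8 stretch holds TATAAA once, its first base 30 bases before the start, and these letters are not in the S100a9 window. Of 32851 promoters in the same table, 7.6% hold TATAAA on either strand within the same 150 bases. RefSeq promoters were found for 27 of the 35 genes.

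S100a8 levels had a lowest, median and highest value of −4.05, −2.98 and −2.42 in DKD+enarodustat kidneys, of −4.27, −3.50 and −3.13 in DKD kidneys and of −3.10, −2.67 and −2.08 in Sham kidneys. Every DKD array lay below every Sham array, and 4 of 9 DKD+enarodustat arrays did. S100a8 fell by 1.03 ± 0.24 in DKD against Sham kidneys, 2.04-fold (adjusted p = 0.00597). S100a9 levels had a lowest, median and highest value of −1.63, −0.82 and −0.22 in DKD+enarodustat kidneys, of −2.21, −1.43 and −0.83 in DKD kidneys and of −0.86, −0.56 and 0.21 in Sham kidneys. Of the 9 DKD arrays, 8 lay below every Sham array, and the DKD+enarodustat range overlapped both. S100a9 fell by 1.07 ± 0.23 in DKD against Sham kidneys, 2.09-fold (adjusted p = 0.00331).

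Both calprotectin calls were kept without any 1 array and in every other setting run. The S100a8 difference shrank to −0.37 with normexp background correction (adjusted p = 0.0354) and to −0.39 in the deposited value table (adjusted p = 0.00629), and that of S100a9 to −0.70 and −0.71. Within slides S100a8 gave −0.83, −0.97 and −1.29, and S100a9 gave −0.95, −1.13 and −1.12. In DKD+enarodustat minus DKD their differences were 0.43 ± 0.21 and 0.57 ± 0.20 (adjusted p = 0.472 and 0.26). In DKD+enarodustat minus Sham they were −0.60 ± 0.24 and −0.49 ± 0.23 (adjusted p = 0.091 and 0.15), and S100a8 passed there without DKD+enarodustat 6 (−0.70, adjusted p = 0.0444).

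Retnlg, a secreted resistin-like protein of neutrophils, had levels of −5.84, −4.96 and −3.96 (lowest, median, highest) in DKD+enarodustat kidneys, of −7.19, −5.04 and −4.24 in DKD kidneys and of −4.75, −4.46 and −3.87 in Sham kidneys. Of the DKD arrays, 8 of 9 lay below every Sham array, and the difference was −0.89 ± 0.32 (adjusted p = 0.076). Retnlg passed with slide row as a term (−1.15, adjusted p = 0.026) and without DKD 3 (−1.01, adjusted p = 0.0372), but with normexp on the median signals its difference was −0.12 (adjusted p = 0.63). Csf3r, the receptor for granulocyte colony-stimulating factor, had levels of 5.64, 6.21 and 6.91 in DKD+enarodustat kidneys, of 5.52, 6.11 and 6.83 in DKD kidneys and of 5.01, 5.57 and 6.20 in Sham kidneys. Its differences were 0.54 ± 0.22 in DKD minus Sham (adjusted p = 0.13) and 0.61 ± 0.22 in DKD+enarodustat minus Sham (adjusted p = 0.0672), and the ranges overlapped in both. Csf3r passed in DKD+enarodustat minus Sham without Sham 6 or DKD+enarodustat 2, 4 or 9 (adjusted p = 0.0361 to 0.0465). Deviations of Csf3r correlated with those of S100a8 at 0.06 and with those of Retnlg at −0.27 over 24 arrays.

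**Figure D4:**
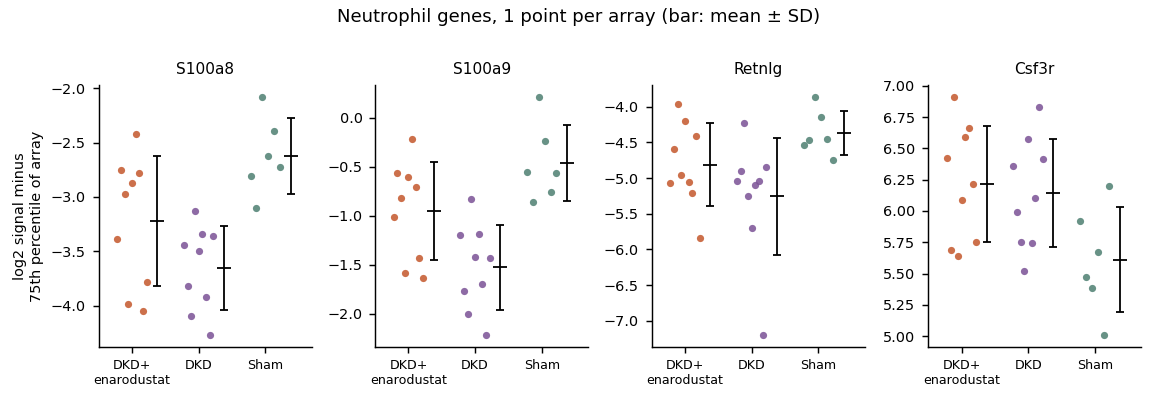
Levels of S100a8, S100a9, Retnlg and Csf3r on each array in DKD+enarodustat, DKD and Sham kidneys (log2 signal relative to that array's 75th percentile), with bars for mean ± SD. The S100a8 arrays of DKD lie wholly below those of Sham, with DKD+enarodustat arrays spread over both, and the mean of Csf3r is lowest in Sham.

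Of 8 further neutrophil genes tested, among them the granule genes Mpo, Elane, Ltf and Camp, limma called 0 in any comparison. At an unadjusted p under 0.05, 1 was higher in DKD+enarodustat minus DKD, 2 were lower in DKD+enarodustat minus Sham and 0 differed in DKD minus Sham, where the median was −0.14. The gelatinase Mmp9 was well above background on 0 of 24 arrays, Ngp on 1 and Il1r2 on 3. Markers of other blood cells differed alongside calprotectin. Of 5 platelet genes 4 fell in DKD against Sham kidneys, among them Ppbp by 2.29 ± 0.41 (adjusted p = 0.000833) and Pf4 by 1.05 ± 0.28 (adjusted p = 0.0151). With normexp on the median signals Ppbp differed by −0.40 and Pf4 by −0.56 (adjusted p = 0.0101 and 0.0231), while Gp1bb at −0.15 and Gp9 at −0.16 did not pass (adjusted p = 0.242 and 0.416). Gp1bb did not pass with slide row as a term either (adjusted p = 0.0559). In DKD+enarodustat against Sham kidneys 2 of the 5 platelet genes fell, Ppbp and Gp1bb. Both of those calls ended with slide row as a term (adjusted p = 0.975 and 0.593). The summed linear level of the platelet list was 0.35 to 0.78 (median 0.50) in DKD+enarodustat, 0.25 to 0.50 (median 0.34) in DKD and 0.49 to 0.92 (median 0.61) in Sham kidneys. Of 5 red cell genes 3, all globins, fell in DKD against Sham kidneys, with summed levels of 256 to 851 (median 523) in DKD+enarodustat, 148 to 474 (median 275) in DKD and 298 to 754 (median 527) in Sham kidneys. The calls of Hba-a1, Hba-a2 and Hbb-bt ended with slide row as a term (adjusted p = 0.0985, 0.101 and 0.104) and without Sham 2, 3, 4 or 5 or DKD 8, and that of Hbb-bt also without DKD 6, 7 or 9 (adjusted p up to 0.0873). The part of blood left in the tissue in these differences was not tested.

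Lymphocyte markers also differed. Of 9 T and NK cell genes 3 fell in DKD against Sham kidneys, led by the NK receptor Klrb1c at −1.68 ± 0.24 (adjusted p = 9.7e-05) and the protease Gzma at −1.26 ± 0.18 (adjusted p = 9.47e-05). With normexp on the median signals Klrb1c differed by −0.39 and Gzma by −0.80 (adjusted p = 0.0102 and 4.69e-05). The third, Cd3g, did not pass with normexp (−0.12, adjusted p = 0.549), with slide row as a term (adjusted p = 0.0503), or when any 1 of Sham 1, 3 and 4 and DKD 4 and 5 was left out (highest adjusted p = 0.105). Of 7 B cell genes 2 fell, Cd79b by 1.14 ± 0.22 (adjusted p = 0.00116) and Jchain by 1.78 ± 0.51 (adjusted p = 0.0234), the last lost without Sham 1, 3 or 4 (adjusted p up to 0.0745) and with slide row as a term (adjusted p = 0.0715). Cd79b differed by −0.48 with normexp (adjusted p = 0.00839). In DKD+enarodustat against Sham kidneys 3 of the 9 T and NK cell genes fell, Gzma, Klrb1c and Cd3e, and 0 of the 7 B cell genes. There Klrb1c did not pass with slide row as a term (−0.74, adjusted p = 0.259). The Cd3e call ended without any 1 of 7 arrays (adjusted p up to 0.0896). Summed levels of T and NK genes were 2.61 to 5.14 (median 3.32) in DKD+enarodustat, 2.37 to 4.98 (median 3.86) in DKD and 4.55 to 6.76 (median 5.09) in Sham kidneys. Those of B cell genes were 1.80 to 11.1 (median 5.95) in DKD+enarodustat, 1.20 to 7.75 (median 2.56) in DKD and 2.86 to 22.3 (median 9.76) in Sham kidneys. Their part in the differences of the myeloid genes was not tested.

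Within groups, pairs of genes from 4 of the 5 roles had a higher median correlation than pairs between roles, and neutrophil pairs a lower one. Pearson correlations of deviations from group means over 24 arrays, given as a description since genes of 1 array share its RNA and its scaling, had a median of 0.40 over 66 pairs of resident macrophage genes. Medians were 0.53 over 15 monocyte pairs, 0.46 over 15 antigen presentation pairs, 0.37 over 10 shared myeloid pairs and 0.17 over 6 neutrophil pairs, beside 0.24 over 416 pairs between roles. The closest pairs after Lyz1 and Lyz2 were C1qa and C1qc (r = 0.93), S100a8 and S100a9 (r = 0.92), C1qb and C1qc (r = 0.91), Tyrobp and Fcer1g (r = 0.88), and Itgam and Csf3r (r = 0.86). The last value holds for the brighter Itgam probe. The second Itgam probe correlated with Csf3r at 0.38 and with the brighter probe at 0.24. Lyz2 and C1qa had the highest median correlation with the other 32 genes, 0.54 and 0.53. Csf1r, Cd163 and Csf3r had the lowest medians, −0.04, −0.02 and 0.01, though single pairs were closer, such as Cd163 and Mrc1 (r = 0.61) and Csf1r and S100a8 (r = 0.46).

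**Figure D5:**
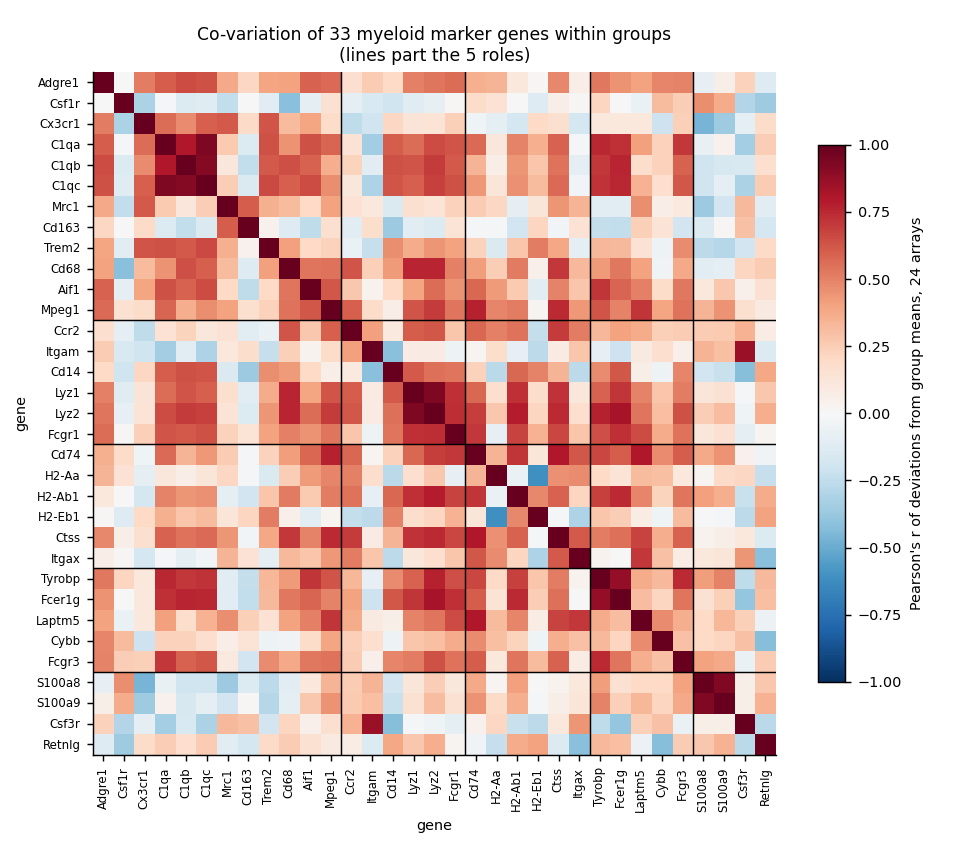
Pearson's r of deviations from group means over 24 arrays for each pair of the 33 tested genes, ordered by role, with red above 0 and blue below. The C1q genes, the lysozyme genes, Tyrobp and Fcer1g are red with each other, though they lie in separate role blocks. S100a8 and S100a9 pair with each other, the brighter Itgam probe pairs with Csf3r, and Csf1r belongs to no such set.

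Other genes of the same cells gave scattered calls. Of 19 further macrophage genes tested, 1 rose in DKD against Sham kidneys: Irf8, a transcription factor of monocytes and dendritic cells, by 0.66 ± 0.17 (adjusted p = 0.0107). In DKD+enarodustat against Sham kidneys Irf8 and Stab1, a scavenger receptor also made by endothelium, rose by 0.72 ± 0.17 and 0.76 ± 0.17 (adjusted p = 0.00512 and 0.0032). Slide row as a term ended both Irf8 calls, with 0.51 in DKD (adjusted p = 0.0505) and 0.26 in DKD+enarodustat kidneys (adjusted p = 0.541). Of 9 further monocyte genes, the chitinase-like Chil3 rose 2.27-fold in DKD and 2.15-fold in DKD+enarodustat kidneys, each against Sham (log2 SE 0.32, adjusted p = 0.016 and 0.0201). Both Chil3 calls ended without Sham 2 (adjusted p = 0.0535 and 0.0661) and with normexp on the median signals, where its log2 differences were 0.33 and 0.28 (adjusted p = 0.0678 and 0.116). In DKD+enarodustat minus Sham the Chil3 call also ended in the deposited value table (0.28, adjusted p = 0.073), with quantile normalization (adjusted p = 0.0562) and with slide row as a term (adjusted p = 0.233).

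Of 9 dendritic cell genes only Sirpa, an inhibitory receptor that macrophages also carry, passed, with 0.36 ± 0.09 in DKD and 0.39 ± 0.09 in DKD+enarodustat kidneys against Sham (adjusted p = 0.00927 and 0.00449). The dendritic cell marker Xcr1 was well above background on 0 of 24 arrays. Of 9 further class II and costimulatory genes, Cd80 rose 2.14-fold in DKD+enarodustat against Sham kidneys (log2 SE 0.34, adjusted p = 0.0305), but its log2 difference was −0.055 with the mean of its probes (adjusted p = 0.898). Leaving out 1 of Sham 2, 3 or 5 or DKD+enarodustat 1, 3 or 7 also ended the Cd80 call (adjusted p up to 0.0924). Among ligands the chemokine Cxcl10 rose by 1.05 ± 0.29 in DKD+enarodustat against Sham kidneys (adjusted p = 0.0168), and not without Sham 2 (adjusted p = 0.0522) or with slide row as a term (0.59, adjusted p = 0.458). Of 9 inflammatory effectors, the cytokine Il18 fell by 0.68 ± 0.12 in DKD and by 0.53 ± 0.12 in DKD+enarodustat kidneys against Sham (adjusted p = 0.000465 and 0.00341). Icam1, an adhesion molecule for leukocytes, rose by 0.63 ± 0.14 and 0.53 ± 0.14 in those comparisons (adjusted p = 0.0057 and 0.0155), the second lost without Sham 5 (adjusted p = 0.0501). Both Icam1 calls ended with normexp (0.17 and 0.13, adjusted p = 0.191 and 0.349) and in the deposited value table (0.16 and 0.12, adjusted p = 0.0669 and 0.169), and the second also with quantile normalization (adjusted p = 0.093) and slide row as a term (0.27, adjusted p = 0.496). The Sirpa, Il18 and Cd80 calls of DKD+enarodustat minus Sham ended with slide row as a term too, at 0.36, −0.43 and 1.37 (adjusted p = 0.148, 0.191 and 0.156). In DKD+enarodustat against DKD kidneys limma called 0 of the 67 genes tested in these 6 lists, with 11 higher and 1 lower at an unadjusted p under 0.05.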

How the data were processed

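Total RNA of 24 kidneys was labelled with Cy3, per the labels' protocols, and hybridised to 1 single-colour Agilent array each, of design 074809. The deposited scanner files hold intensity values, processed within each array by Agilent Feature Extraction 12.1.1.1 per the file headers, whereas version 11.5.1.1 and limma appear in the submitters' processing notes. The authors also deposited a log2 value table of 31409 probes, used as an alternative. Its normalization is not stated in the labels; its columns have medians of 7.543 to 7.559.

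Control spots were dropped, repeated spots of a probe were averaged, and genes were named from probe accessions through RefSeq (GRCm38.p6), which named 32994 of 56605 probes. The brightest probe stood for a gene. Its log2 processed signal was scaled to the 75th percentile on its array (a signal of 187 to 388), and 0 spots were saturated. The number of arrays limits the precision.

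All 24 arrays entered 1 fit of limma 3.58.1 (R 4.3.3) with group as the only term, checked on simulated data, and two-sided p-values were adjusted by Benjamini-Hochberg over 17736 genes. Groups came from the labels, whose design text counts mice, so arrays were taken as separate mice. Replicate numbers were not treated as pairs in the main fit, and a replicate block was run as an alternative. Deviations of same-numbered arrays correlated at a median of 0.097, and 10 of 21 such pairs exceeded 0.1. Pairs with other numbers had a median of −0.024 (49 of 168 pairs over 0.1). Same-numbered DKD and DKD+enarodustat arrays lay on the same slide, so these values cannot tell pairing from slide. Arrays of different groups correlated at a median of 0.189 on the same slide (47 of 63 pairs over 0.1). On other slides the median was −0.093 (12 of 126 pairs over 0.1). Slide variation therefore stayed in the main fit and in the correlations between genes, which removed group means only. Genes given with values per group were those that passed, and for roles with none the 2 with the brightest probes; other members shown by array were added after their values were seen. Of other lists up to 3 passing genes per comparison and direction were eligible. The members, lists and alternatives were chosen with earlier results of these data known. Alternatives covered background correction, the deposited table, quantile normalization, filters on dim probes, slide, slide row, replicate number, the arrays fitted, the probes used and leaving out each array. A result for 1 gene outside the members is not reported here.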

Additional observations from a re-analysis of the deposited data

Results flagged for a closer look

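In 9 of 99 tests of a gene in a group (9.09%), the highest or lowest array stood apart from the others by Dixon's criterion, where chance gives about 1 in 20. H2-Eb1 was low on DKD 8 (−1.65, next array 2.52) and on Sham 1 (−1.25, next array 2.84). DKD 2 was high for Lyz1 (1.62, next array 0.28) and Lyz2 (−1.65, next array −2.60). Mpeg1 was low on DKD 7 (−1.10), Fcer1g on DKD 5 (−0.72) and Retnlg on DKD 8 (−7.19). Ccr2 was high on Sham 1 (−2.29), and Tyrobp was high on DKD+enarodustat 5 (1.31).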

How the results depend on the processing

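The count of genes that fell in DKD against Sham kidneys was 3 to 4 and of those that rose 0 in all 11 other settings and without any 1 array. In DKD+enarodustat against DKD kidneys 1 gene, Mpeg1, rose with slide as a fixed block, and 0 in the other settings and without any 1 array. In DKD+enarodustat against Sham kidneys 0 genes rose with normexp on the median signals, the deposited value table, quantile normalization, no filter on dim probes, slide row as a term or the replicate block, 2 with slide as a fixed block and 3 in a fit of only the 2 groups compared. Genes that fell there numbered 0 with slide row as a term. Leaving out 1 array gave 0 to 3 genes that rose and 1 to 2 that fell. Slide row as a term turned Ppbp in DKD+enarodustat minus Sham to 0.040, and the mean of all probes turned Cd80 to −0.055; for Ppbp the cause was not tested. The replicate block ended the Lyz2 call (0.92, adjusted p = 0.0565) and no other call among the 33 genes. Among the other genes named it ended the calls of Cd3g, Hba-a1, Hba-a2, Hbb-bt and Tek in DKD minus Sham, of Hbb-bt and Emcn in DKD+enarodustat minus DKD, and of Cd80 and Slc34a1 in DKD+enarodustat minus Sham.

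Of 1077 values of single members under other settings 7 lost and 6 gained a call, and 32 changed sign, none of them called before or after; of 2376 values with 1 array left out these numbers were 14, 12 and 70. Over all genes the split of DKD+enarodustat minus DKD calls was 108 higher and 19 lower in the main setting, and 105 and 46 in the deposited value table. The filter that demanded a probe well above background on all 24 arrays left fewer genes. The planned normexp correction on mean signals was not run, since the files used here hold median signals, and that on median signals was added after seeing the data, as was the test of every probe as its own feature. Probes near background limit what can be said of Cd163, Msr1 and Retnlg.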

Other observations

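Kidney cell markers outside the myeloid list differed in places. Slc22a6, an organic anion transporter of proximal tubules, fell by 0.75 ± 0.12 in DKD and by 0.67 ± 0.12 in DKD+enarodustat kidneys against Sham (adjusted p = 0.000305 and 0.000704 from limma). It was the only 1 of 5 proximal tubule genes to pass in DKD against Sham kidneys, and Slc34a1, a phosphate transporter, also fell in DKD+enarodustat against Sham kidneys, by 0.23 ± 0.07 (adjusted p = 0.0422). The Slc34a1 call ended in 6 of 11 other settings (adjusted p up to 0.522, at −0.12 in the deposited value table) and without any 1 of 9 arrays, Sham 2, 3 and 4 and DKD+enarodustat 1, 3, 4, 5, 7 and 8. Summed linear levels of the 5 proximal tubule genes were 458 to 535 (median 502) in DKD+enarodustat, 434 to 589 (median 554) in DKD and 548 to 682 (median 610) in Sham kidneys, with DKD+enarodustat arrays all below the Sham range. Of 5 endothelial genes 3 rose in DKD+enarodustat against Sham kidneys, among them Cdh5, the cadherin of endothelial junctions, by 0.64 ± 0.09 and the angiopoietin receptor Tek by 0.53 ± 0.08 (adjusted p = 9.04e-05 and 0.000185). The third, Pecam1, differed by 0.39 ± 0.09 (adjusted p = 0.0043) and did not pass with slide row as a term (adjusted p = 0.111). Limma called 0 of 3 tested mast cell genes and 0 of 4 podocyte genes in DKD against Sham kidneys, with 0 mast cell genes and 1 podocyte gene at an unadjusted p under 0.05.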
